A study of Homo sapiens with 3 samples.

Results

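The genes described here are the chromatin remodellers and histone modifiers named by 7 symbol families: the SMARC, ARID and CHD genes of the remodelling complexes, the HDAC deacetylases, the KDM demethylases, and the KMT and SETD methyltransferases. They were chosen by symbol alone, with antisense transcripts and KDM5D left out, which gave 81 of the 31113 symbols in the gene lists. The families hold 13 SMARC, 10 ARID, 9 CHD, 11 HDAC, 19 KDM, 8 KMT and 11 SETD symbols. Of the 81, 67 reached at least 10 CPM (UMIs of a gene per 1000000 UMIs of the library) in at least 1 library. The 14 below this level were ARID3C, ARID5A, ARID5B, CHD5, HDAC10, HDAC11, KDM4D, KDM4E, KDM5C-IT1, KDM8, SETD7, SETDB2, SMARCA2 and SMARCD3. SMARCA2 and SETD7 came nearest to it from below, with 9.79 and 9.77 CPM in their highest library, and SETD4, with 12.1 CPM in its highest library, lay just above it.

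The study profiled single cells of H9, an established human embryonic stem cell line, with the TruDrop version of inDrop, in which droplets tag each cell with a barcode and each captured RNA with a unique molecular identifier (UMI). There were 3 libraries from a differentiation towards neural progenitor cells, 1 each labelled day 0, day 2 and day 6. The labels name mTeSR, a stem cell medium, and the STEMdiff SMADi Neural Induction Kit, which inhibits SMAD signalling, for all 3 libraries alike. With 1 library per label there is no replicate and no test between labels, and differences between cultures, libraries and days cannot be told apart. The titles of the libraries labelled day 0 and day 6 end in the letter A and that of day 2 in B, with no explanation, so a difference that these letters may mark cannot be told apart from the label either. Every interval below is a 95% interval that covers counting error only.

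Remodellers use ATP to slide, evict or exchange nucleosomes, and histone modifiers write or erase the acetyl and methyl marks that mark active and silent chromatin. Many of these enzymes exist as paralogues that take the same place in a complex, and in mouse neural development several such places are known to pass from one paralogue to another. In pluripotent stem cells they are known for keeping chromatin open at active genes while developmental genes stay repressed but inducible.

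The marker genes went against the labels day 0 and day 2. POU5F1, the core pluripotency factor, measured 2.22, 1229 and 268 CPM across the libraries labelled day 0, 2 and 6, and PAX6, a neural progenitor factor, stood at 176, 6.64 and 27.9 CPM. Summed over 10 pluripotency markers the levels were 1754, 4081 and 3359 CPM, and over 10 neural progenitor markers 727, 91.9 and 868 CPM, in the same order. At 10 CPM or more were 4, 10 and 6 of the pluripotency markers and 8, 2 and 7 of the neural progenitor markers. The 6 neuron markers summed to 21.1, 27.7 and 115 CPM. Of the markers of other lineages, the 5 of surface ectoderm summed to 86.0, 80.6 and 48.2 CPM, the 5 of mesenchyme to 58.0, 25.7 and 35.5 CPM, and the 5 of endoderm to 13.0, 7.47 and 4.70 CPM, with at most 1 gene of each list at 10 CPM or more. The 4 neural crest markers found summed to 4.59, 29.1 and 1.09 CPM, and 1 of them, FOXD3, is also among the pluripotency markers. The trophectoderm and mesoderm markers summed to at most 9.98 and 2.47 CPM. The part of these markers in the results below was not tested. The libraries are therefore called by their labels throughout, and no course over time is read from them. After filtering they held 2290, 2419 and 4180 cells with 28341741, 20626135 and 41268018 UMIs, so that 3 UMIs amount to 0.106, 0.145 and 0.0727 CPM. The median cell had 8770, 3814 and 4429 UMIs, of which 12.1%, 5.26% and 8.27% were mitochondrial. Kept cells shared 38 to 82 barcodes between pairs of libraries. Each of 6 expression clusters came to at least 93.5% from a single library.

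Taken over all 81 members, the summed level was 5598, 4711 and 5597 CPM in the libraries labelled day 0, 2 and 6. The sum was 0.841 times as high in the library labelled day 2 as in that labelled day 0 (0.835 to 0.848). It was 1.19 times as high for labelled day 6 over day 2 (1.18 to 1.20). A sum over all cells cannot tell fewer expressing cells from less RNA per cell. The families did not all follow the total. The KMT genes had 335 CPM in the library labelled day 2, against 539.9 CPM in that labelled day 0, a ratio of 0.621 (0.604 to 0.639), and the CHD genes had 623 CPM against 872 CPM, a ratio of 0.714 (0.699 to 0.730). The HDAC sum stayed between 691 and 720.3 CPM, and the KDM sum between 802 and 896 CPM. Most UMIs of each family fell on SMARCC1, ARID1A, CHD4, HDAC2, KDM5B, KMT2A and SETD5; these counts are not corrected for transcript length.

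**Figure D1:**
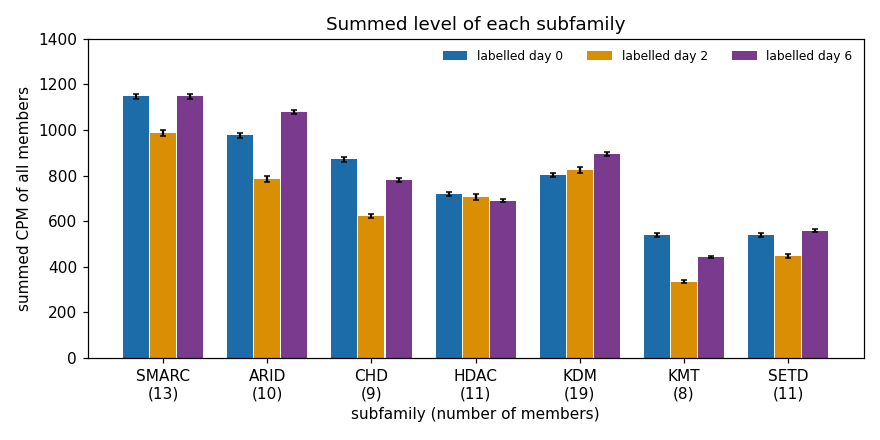
Summed CPM of all members of each family in the libraries labelled day 0, 2 and 6, as bars with exact Poisson 95% intervals. The KMT bars stand at 539.9, 335 and 443 CPM, while the HDAC bars stay between 691 and 720.3 CPM.

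Of the 66 members measured with at least 10 CPM in 1 of the 2 libraries, 1 reached 2-fold in the library labelled day 2 over that labelled day 0, where 10.1% of all genes at that level did. Another 6, or 9.09%, were at most 0.5 times as high, where 10.2% of all genes were. For labelled day 6 over day 2, 4 members were at least 2-fold higher (6.06%, against 8.3% of all genes) and 1 was at most 0.5 times as high (1.52%, against 6.32%). For labelled day 6 over day 0, 4 members reached 2-fold and another 4 lay at or under 0.5 times (6.06% each), where the shares of all genes were 9.94% and 6.09%. Among the cells kept here, the members' shares thus lay near or below those of all genes. The comparisons share libraries pairwise and are not independent of each other.

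Between their highest and lowest library the 67 members differed by a median of 1.48-fold, against 1.64-fold over 10574 genes at that level. A range of at least 2-fold was seen in 13 members (19.4%), against 30.9% of those genes. The library labelled day 2 was the highest for 10 members (14.9%, against 29.2% of all genes) and the lowest for 31 (46.3%, against 37.4%). That labelled day 6 was the highest for 31 members (46.3%, against 39.0%), and that labelled day 0 for 26 (38.8%, against 31.9%). The median log2 ratio of the members was -0.14 between the libraries labelled day 2 and 0, 0.32 between those labelled day 6 and 2, and 0.04 between those labelled day 6 and 0, the later label on top, beside 0.01, 0.12 and 0.11 over all genes. The counts depend on which cells enter: with at most 10% mitochondrial UMIs, which leaves 822, 1519 and 2385 cells, 12 members were at most 0.5 times as high for labelled day 2 over day 0 and 11 at least 2-fold higher for day 6 over day 2. With every cell thinned to 1000 UMIs these counts were 10 and 8. The shares of all genes were not computed at these settings. Whether the members' shares still lie near or below them there is therefore not known.

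**Figure D2:**
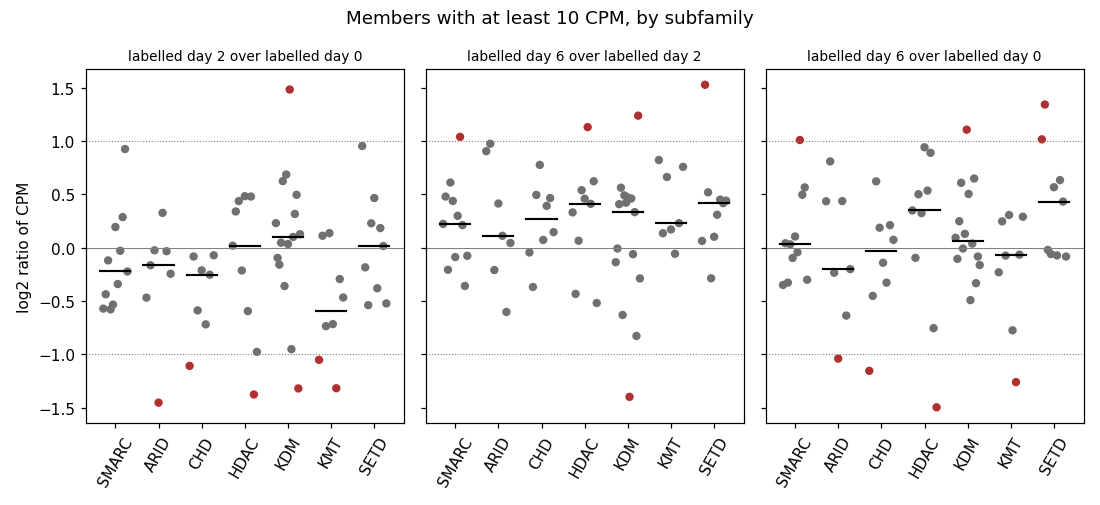
Log2 ratio of CPM of each member with at least 10 CPM in 1 of the 2 libraries, by family and comparison; the black bars are family medians, the dotted lines mark 2-fold, and members past it are red. The KMT median lies lowest in the left panel, at -0.59, and most points lie between the dotted lines in all 3 panels.

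Most SMARC genes encode the ATPases and core subunits of the BAF (SWI/SNF) complexes or the ISWI ATPases. Of the 11 SMARC genes measured, none passed 2-fold for labelled day 2 over day 0, and their median log2 ratio was -0.22. SMARCC2, which encodes the BAF170 scaffold subunit, was the family's member past 2-fold elsewhere. It measured 14.5, 14.2 and 29.2 CPM across the libraries labelled day 0, 2 and 6. That labelled day 6 lay above both others, with ratios of 2.05 over day 2 (1.81 to 2.34) and 2.01 over day 0 (1.80 to 2.26). Its paralogue SMARCC1, the BAF155 scaffold, stood at 349, 275 and 339 CPM, so that SMARCC1 held 96.0%, 95.1% and 92.1% of the UMIs of the pair. Such shares are not corrected for transcript length, so a share says little in itself and its difference between libraries is what is compared. The ratio of SMARCC1 to SMARCC2 was thus 0.482 times as high in the library labelled day 6 as in that labelled day 0 (0.429 to 0.541). The exons of SMARCC2 overlap those of MYL6 on the other strand. In the sources used here the strand setting of the counting is not given. MYL6 had ratios of 2.06 for labelled day 6 over 2, 1.30 for day 6 over 0 and 0.631 for day 2 over 0. For the last of these SMARCC2 had 0.980. The part of MYL6 in the SMARCC2 values was not tested. Thinning brought the SMARCC2 ratio of labelled day 6 over day 0 to 1.41, and leaving out cells above 10% mitochondrial UMIs to 1.78.

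Of the alternative ATPases of the BAF complex, SMARCA4 (BRG1) stood at 208, 153 and 213.5 CPM, and SMARCA2 (BRM) at 4.55, 9.79 and 8.21 CPM. SMARCA4 held 97.9%, 94.0% and 96.3% of the UMIs of the pair. The ratio of SMARCA4 to SMARCA2 was 0.343 times as high for labelled day 2 over day 0 (0.272 to 0.432). Because SMARCA2 stayed under 10 CPM, this pair is not among those counted for switches below. Among the interchangeable BAF60 subunits, SMARCD2 had 74.3 CPM in the library labelled day 2, against 39.2 CPM in that labelled day 0 (ratio 1.90, 1.76 to 2.05), and 57.9 CPM in that labelled day 6. SMARCD1 had 89.4, 109 and 126 CPM, and SMARCD3, known from heart and neural BAF complexes, 5.93, 2.96 and 6.15 CPM. The ISWI ATPases SMARCA1 and SMARCA5 were highest in the library labelled day 0, at 157 and 123 CPM, and neither fell to 0.5 times that level in another. The subunits SMARCB1 and SMARCE1 had ratios between 0.811 and 1.14 in all 3 comparisons.

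ARID3A, a DNA-binding protein also called Bright, differed most between libraries among the ARID genes with at least 10 CPM. It measured 156, 56.9 and 75.8 CPM across the libraries labelled day 0, 2 and 6, and was 0.365 times as high for labelled day 2 over day 0 (0.342 to 0.389) and 0.486 times for day 6 over day 0 (0.464 to 0.509). Its paralogue ARID3B ran the other way, with 76.6, 95.9 and 104 CPM. ARID3A therefore held 67.1%, 37.2% and 42.3% of the pair's UMIs. The ratio of ARID3A to ARID3B was 0.291 times as high in the library labelled day 2 as in that labelled day 0 (0.266 to 0.318). At equal depth of 1000 UMIs, 13.9%, 5.50% and 7.15% of cells had an ARID3A UMI, and 7.42%, 9.51% and 9.71% an ARID3B UMI. In cells with at most 10% mitochondrial UMIs the ARID3A ratio of labelled day 6 over day 0 was 0.550.

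ARID1A and ARID1B, the alternative subunits that define canonical BAF, were both highest in the library labelled day 6. ARID1A stood at 226, 163 and 305 CPM, and ARID1B at 176, 157 and 309 CPM. In that library they were 1.87 times (1.80 to 1.94) and 1.96 times (1.89 to 2.04) as high as in that labelled day 2, just short of 2-fold. ARID2, which defines the PBAF form, stood between 99.8 and 117 CPM. The SIN3-associated ARID4A and ARID4B had ratios between 0.643 and 1.03.

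CHD1, a remodeller that binds trimethylated lysine 4 of histone H3 and that mouse embryonic stem cells need for open chromatin, stood at 118, 54.6 and 52.9 CPM. The library labelled day 0 lay above both others, which did not differ beyond counting error (ratio 0.969, 0.901 to 1.04). The ratios against it were 0.463 for labelled day 2 (0.433 to 0.496) and 0.449 for labelled day 6 (0.425 to 0.474). CHD2, its closest paralogue, stood at 116, 109.8 and 85.01 CPM, so that CHD1 held 50.3%, 33.2% and 38.3% of the pair's UMIs. Of the NuRD remodellers, CHD4 had 163 CPM in the library labelled day 2, against 245 CPM in that labelled day 0 (ratio 0.665, 0.638 to 0.693), and 278 CPM in that labelled day 6, while CHD3 did not exceed 12.7 CPM and CHD5 stayed at or under 1.55 CPM. CHD7, which is mutated in CHARGE syndrome, had 199.7, 121 and 159 CPM. The 7 to 8 CHD genes measured had median log2 ratios of -0.25 for labelled day 2 over 0, 0.27 for day 6 over 2 and -0.03 for day 6 over 0.

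**Figure D3:**
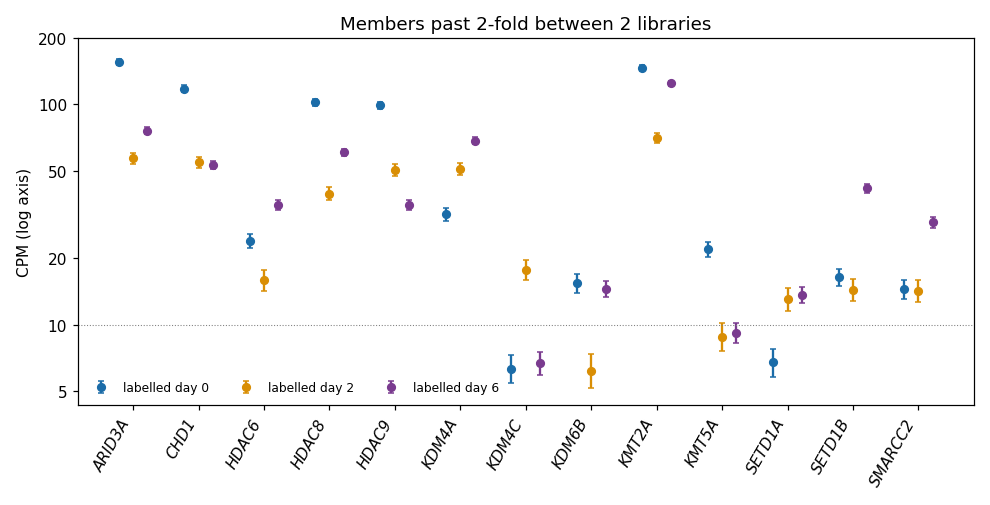
CPM (log axis) of the 13 members past 2-fold between 2 of the libraries, with exact Poisson 95% intervals; the dotted line marks 10 CPM. KDM4C is high in the library labelled day 2 at 17.6 CPM, ARID3A and CHD1 in that labelled day 0, and SETD1B and SMARCC2 in that labelled day 6.

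HDAC enzymes remove acetyl groups and fall into class I (HDAC1, HDAC2, HDAC3, HDAC8), class IIa (HDAC4, HDAC5, HDAC7, HDAC9), class IIb (HDAC6, HDAC10) and class IV (HDAC11). HDAC8, which deacetylates cohesin, differed most among the class I enzymes. It measured 102, 39.3 and 60.4 CPM across the libraries labelled day 0, 2 and 6, with the day 0 library highest, and its ratio for labelled day 2 over day 0 was 0.385 (0.356 to 0.416). HDAC2, a subunit of NuRD, SIN3 and CoREST, ran the other way, at 293, 371 and 274.5 CPM. HDAC1, which shares those complexes, stood at 76.6, 77.6 and 97.5 CPM, and HDAC3, the NCoR enzyme, at 39.1, 52.8 and 55.2 CPM.

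HDAC9 had the lowest ratio of any measured member for labelled day 6 over day 0. It stood at 98.8, 50.1 and 34.97 CPM, a ratio of 0.354 for labelled day 6 over day 0 (0.332 to 0.377). The other class IIa genes were all highest in the library labelled day 6: HDAC4 had 45.3 CPM there, against 36.2 CPM in that labelled day 0, HDAC5 had 41.2 CPM against 21.5 CPM, and HDAC7 had 37.4 CPM against 20.2 CPM. HDAC4 held 26.8%, 38.4% and 56.5% of the UMIs of HDAC4 and HDAC9 in the libraries labelled day 0, 2 and 6. The ratio of HDAC4 to HDAC9 was 3.53 times as high for labelled day 6 over day 0 (3.20 to 3.91) and 2.08 times for day 6 over day 2 (1.84 to 2.35). HDAC6, a mainly cytoplasmic tubulin deacetylase, stood at 24.0, 15.9 and 34.8 CPM, with a ratio of 2.19 for labelled day 6 over day 2 (1.94 to 2.47).

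Several of these levels also moved with the mitochondrial share of the cells, which differed between the libraries. HDAC9 had 20.8, 16.9 and 13.5 CPM in cells under 5% mitochondrial UMIs and 104, 61.2 and 38.5 CPM in the other cells of the libraries labelled day 0, 2 and 6. HDAC8 had 27.3, 19.2 and 30.03 CPM in the cells of low share and 107, 45.9 and 65.4 CPM in the others. Within the low-share cells the HDAC8 intervals of the libraries labelled day 6 and day 0 overlapped, at 25.7 to 34.8 CPM and 20.3 to 36.0 CPM. HDAC2 ran the opposite way, with 478, 563 and 431 CPM in low-share cells and 281, 307 and 249 CPM in the others. HDAC4 had 20.2, 15.7 and 28.7 CPM in low-share cells and 37.3, 36.4 and 48.1 CPM in the others. ARID3A differed little between the classes, with 137, 62.5 and 79.4 CPM in low-share cells and 157, 55.1 and 75.2 CPM in the others. CHD1 had 94.0, 41.0 and 55.1 CPM in low-share cells, with the library labelled day 0 again highest. The low-share cells numbered 463, 1185 and 1648, and the part of this share in the ratios above was not tested.

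**Figure D4:**
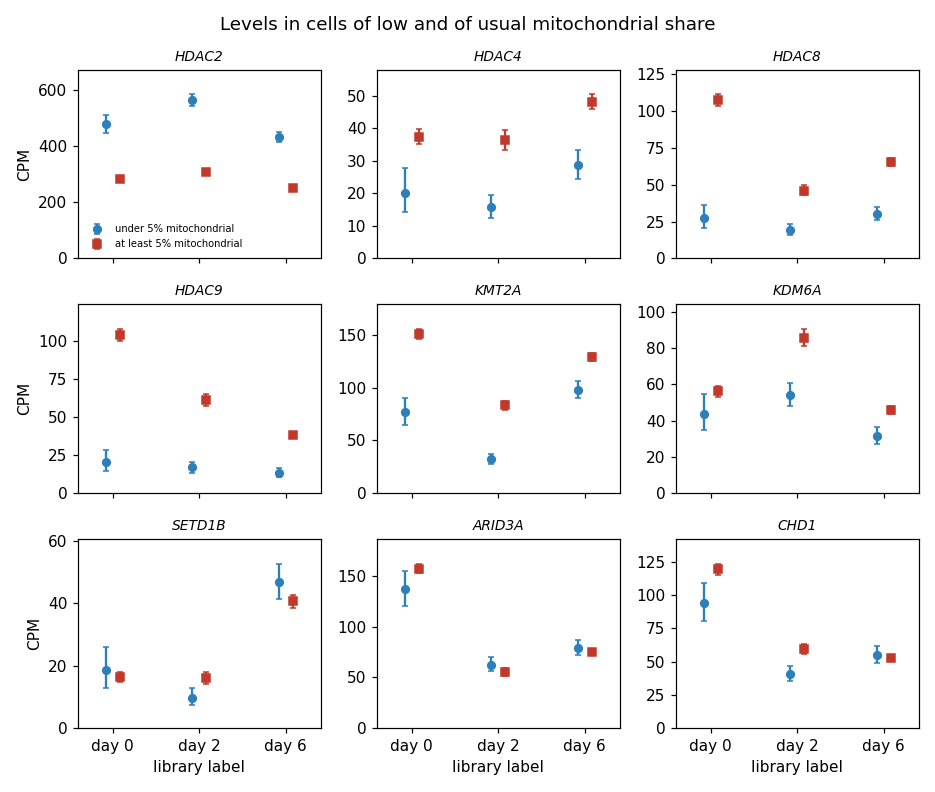
CPM of 9 members in cells under 5% (circles) and at least 5% (squares) mitochondrial UMIs in each library, with exact Poisson 95% intervals. HDAC9 and HDAC8 lie lower in the cells of low share in all 3 libraries, HDAC2 lies higher there, and ARID3A keeps its highest level in the library labelled day 0 in both classes.

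The KDM genes encode lysine demethylases, most of them Jumonji-domain enzymes with their own target lysines. The KDM4 enzymes act on trimethylated lysine 9 and lysine 36 of histone H3. KDM4C was the single member with at least 10 CPM to reach 2-fold for labelled day 2 over day 0. It stood at 6.32, 17.6 and 6.69 CPM, with ratios of 2.79 for labelled day 2 over day 0 (2.33 to 3.36) and 0.379 for day 6 over day 2 (0.323 to 0.444). KDM4A was lowest in the library labelled day 0 and highest in that labelled day 6, at 31.7, 51.0 and 68.3 CPM, a ratio of 2.15 for labelled day 6 over day 0 (2.00 to 2.32). KDM4B stood at 28.3, 28.99 and 40.2 CPM, and KDM4D did not exceed 5.16 CPM. KDM4A held 83.4%, 74.3% and 91.1% of the UMIs of KDM4A and KDM4C, and the ratio of KDM4A to KDM4C was 3.53 times as high for labelled day 6 over day 2 (2.96 to 4.21). KDM4B held 81.8%, 62.2% and 85.7% of the UMIs of KDM4B and KDM4C, a pair that shares KDM4C with the one before. KDM4C UMIs were found in 0.480%, 1.41% and 0.478% of cells at 1000 UMIs. ACTA1, a muscle gene not expected in these cultures, reached 1.44%, 1.16% and 1.70%, so that the KDM4C shares are not above that of ACTA1 in the libraries labelled day 0 and day 6.

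The promoters of 3 genes with a single annotated start are shown from 250 bases before to 50 after it, because CHD1 differed most among the CHD genes with at least 10 CPM and KDM4A and KDM4C are paralogues that differed in opposite ways for labelled day 6 over day 2. They are RefSeq sequences of GRCh38.p14, read 5′ to 3′ on the gene's strand, with CG dinucleotides in capitals. CHD1 lies at chr5:98928958-98929257 on the minus strand, KDM4A at chr1:43649899-43650198 and KDM4C at chr9:6757723-6758022, both on the plus strand.
CHD1: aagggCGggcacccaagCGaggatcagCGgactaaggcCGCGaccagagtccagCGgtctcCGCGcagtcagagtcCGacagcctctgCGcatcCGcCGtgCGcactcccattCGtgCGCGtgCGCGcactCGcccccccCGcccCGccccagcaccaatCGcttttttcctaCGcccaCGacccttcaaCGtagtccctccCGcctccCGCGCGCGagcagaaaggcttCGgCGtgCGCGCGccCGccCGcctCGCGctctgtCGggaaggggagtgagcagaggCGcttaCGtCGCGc
KDM4A: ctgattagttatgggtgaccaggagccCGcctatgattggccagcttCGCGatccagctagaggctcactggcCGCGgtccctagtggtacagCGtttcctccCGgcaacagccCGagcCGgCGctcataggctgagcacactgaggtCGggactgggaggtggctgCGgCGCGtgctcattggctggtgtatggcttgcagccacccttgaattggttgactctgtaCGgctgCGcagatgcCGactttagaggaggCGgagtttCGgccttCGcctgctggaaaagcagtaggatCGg
KDM4C: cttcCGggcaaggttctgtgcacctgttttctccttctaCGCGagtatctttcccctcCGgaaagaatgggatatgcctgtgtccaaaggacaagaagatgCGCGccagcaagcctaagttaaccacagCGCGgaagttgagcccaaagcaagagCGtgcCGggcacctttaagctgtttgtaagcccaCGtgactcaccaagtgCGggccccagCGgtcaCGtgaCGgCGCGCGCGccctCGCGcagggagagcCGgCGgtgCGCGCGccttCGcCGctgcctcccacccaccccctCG
CHD1 has 44 CG dinucleotides in these 300 bases, as many or more than which are found in 4.09% of all RefSeq promoters of that length, KDM4A has 21 (39.5%) and KDM4C has 29 (24.0%). Of the 81 members, 69 matched a promoter, and only the first listed start of each gene was used. HDAC9 has 5 annotated starts and ARID5B has 2. The median of the 69 was 28 CG dinucleotides, in a range of 3 to 56, against a median of 14 over 27305 promoters. The observed CG count was at least 0.6 times that expected from base composition in 62 of the 69 (89.9%), against 49.0% of all promoters. The E-box CACGTG, searched on both strands, was found in 7 members, KDM4C and KDM6A among them (10.1%, against 7.43% of all promoters), and the TATA motif TATAAA in 1, ARID5B (1.45%, against 12.0%). The octamer ATGCAAAT was found in 1, HDAC9 (1.45%, against 1.80%), and the motif CCATTG, which reads CAATGG on the other strand, in 11 (15.9%, against 12.7%). The E2F-type motif TTTCCCGC was found in 1 (1.45%, against 1.66%), and the ETS-type motif CCGGAAGT in 2 (2.90%, against 4.44%). No motif of these contains another, and a match is a description of the letters.

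KDM6A (UTX) and KDM6B (JMJD3) remove the repressive methyl marks of lysine 27 of histone H3, and they ran in opposite directions. KDM6A stood at 55.3, 77.9 and 43.8 CPM, highest in the library labelled day 2. KDM6B stood at 15.4, 6.16 and 14.5 CPM, lowest in that library, with ratios of 0.400 for labelled day 2 over day 0 (0.326 to 0.489) and 2.36 for day 6 over day 2 (1.94 to 2.88). KDM6A held 78.2%, 92.7% and 75.1% of the pair's UMIs. The ratio of KDM6A to KDM6B was 3.52 times as high for labelled day 2 over day 0 (2.85 to 4.38) and 0.239 times for day 6 over day 2 (0.193 to 0.293). Thinned to 1000 UMIs per cell, the KDM6B ratio of labelled day 2 over day 0 was 0.550.

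The KDM5 enzymes erase methyl marks from lysine 4 of histone H3. KDM5A was highest in the library labelled day 0, at 101, 51.9 and 71.4 CPM, and its ratio for labelled day 2 over day 0 was 0.517 (0.481 to 0.554), just short of 0.5. KDM5B hardly differed, with 182, 195 and 187 CPM, and the X-linked KDM5C had 38.9, 48.4 and 60.9 CPM. KDM5A therefore held 72.1%, 51.8% and 54.0% of the UMIs of KDM5A and KDM5C, and 35.5%, 21.0% and 27.6% of those of KDM5A and KDM5B. Exons of KDM5A overlap those of CCDC77 on the other strand, which had 37.2, 21.6 and 32.9 CPM, and its part in the KDM5A values was not tested. The H3 lysine 9 demethylases KDM3A and KDM3B also ran in opposite directions: KDM3A had 18.1, 27.8 and 18.0 CPM, KDM3B had 62.9, 49.0 and 68.8 CPM, and their ratio was 0.460 times as high for labelled day 6 over day 2 (0.403 to 0.525). KDM1A (LSD1), the CoREST demethylase, stood between 86.0 and 101 CPM. KDM2A and KDM2B, which bind unmethylated CG-rich DNA, were highest in the library labelled day 6, at 84.2 and 105 CPM. Exons of KDM2B overlap those of RNF34 on the other strand, which had 51.4, 52.3 and 75.6 CPM. The part of RNF34 in the KDM2B values was not tested.

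The KMT2 and SETD1 enzymes methylate lysine 4 of histone H3 within COMPASS-like complexes. KMT2A (MLL1) stood at 146, 70.3 and 124 CPM, lowest in the library labelled day 2, with a ratio for labelled day 2 over day 0 of 0.482 (0.454 to 0.512). Its paralogue KMT2B hardly differed, at 13.0, 14.1 and 15.4 CPM, so that KMT2A held 91.8%, 83.3% and 88.9% of the pair's UMIs. KMT2C, an enhancer methyltransferase, had 81.5, 48.9 and 77.4 CPM, and its paralogue KMT2D 12.0, 13.1 and 14.8 CPM. In cells of low mitochondrial share KMT2A stood at 76.5, 32.0 and 98.0 CPM, and in cells of at least 5% the ratio for labelled day 2 over day 0 was 0.551; the part of this share was not tested.

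SETD1B stood at 16.4, 14.4 and 41.5 CPM, and the library labelled day 6 lay above both others. Its ratios of 2.88 over day 2 (2.55 to 3.27) and 2.53 over day 0 (2.29 to 2.81) were the highest of any measured member in those comparisons. Its paralogue SETD1A stood at 6.74, 13.0 and 13.6 CPM, lowest in the library labelled day 0, with ratios of 1.94 for labelled day 2 over day 0 (1.60 to 2.34) and 2.02 for day 6 over day 0 (1.71 to 2.39). The last value was between 1.92 and 1.98 with all barcodes or another scaling. SETD1A held 29.2%, 47.5% and 24.7% of the pair's UMIs. In low-share cells SETD1B stood at 18.6, 9.71 and 46.8 CPM. At 1000 UMIs per cell, 1.70%, 1.41% and 4.21% of cells had a SETD1B UMI.

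KMT5A, which places the single methyl mark on lysine 20 of histone H4, stood at 22.02, 8.82 and 9.18 CPM. The library labelled day 0 lay above both others, with ratios of 0.401 for labelled day 2 (0.338 to 0.473) and 0.417 for labelled day 6 (0.366 to 0.475) over it. KMT5B and KMT5C, which add further methyl groups there, had ratios between 0.723 and 1.69. KMT2E stood at 161, 97.9 and 94.1 CPM. Its exons overlap those of SRPK2 on the other strand, which had 171, 121 and 125 CPM, and the part of SRPK2 in the KMT2E values was not tested. Of the other SETD genes, SETD2, the trimethylase of H3 lysine 36, had 70.4, 48.4 and 69.4 CPM, SETD5 had 313, 240.5 and 298 CPM, and SETDB1, an H3 lysine 9 methyltransferase, had 28.5, 19.8 and 26.9 CPM. The 9 SETD genes measured had a median log2 ratio of 0.42 for labelled day 6 over day 2, and one of 0.43 for day 6 over day 0.

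Across 31 paralogue pairs in which both genes reached 10 CPM, a switch was counted where the ratio of the pair differed at least 2-fold between 2 libraries and the intervals of its genes lay on opposite sides of 1. No such share was computed over pairs of other genes, so these counts are descriptions. Some pairs share a gene, such as KDM5A or KDM4C, and are not independent. There were 4 switches for labelled day 2 over day 0: ARID3A/ARID3B, KDM5A/KDM5B, KDM5A/KDM5C and KDM6A/KDM6B. KDM5B itself lay only just above 1 there, at 1.07. For labelled day 6 over day 2 there were 5: HDAC4/HDAC9, KDM3A/KDM3B, KDM4A/KDM4C, KDM4B/KDM4C and KDM6A/KDM6B. The 4 for labelled day 6 over day 0 were SMARCC1/SMARCC2, ARID3A/ARID3B, HDAC4/HDAC9 and KDM5A/KDM5C; SMARCC1 itself lay only just below 1 there, at 0.970 (0.945 to 0.995). Pairs whose ratio differed as much without opposite directions were CHD1/CHD2, KDM4B/KDM4C, KMT2A/KMT2B and SETD1A/SETD1B for labelled day 2 over day 0, SETD1A/SETD1B for day 6 over day 2 and KDM4A/KDM4C for day 6 over day 0. The direction of a single gene depends on the scaling, while the ratio within a pair does not. With every cell thinned to 1000 UMIs there were 2, 3 and 2 switches in the 3 comparisons, ARID3A/ARID3B among them for both later labels over day 0.

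**Figure D5:**
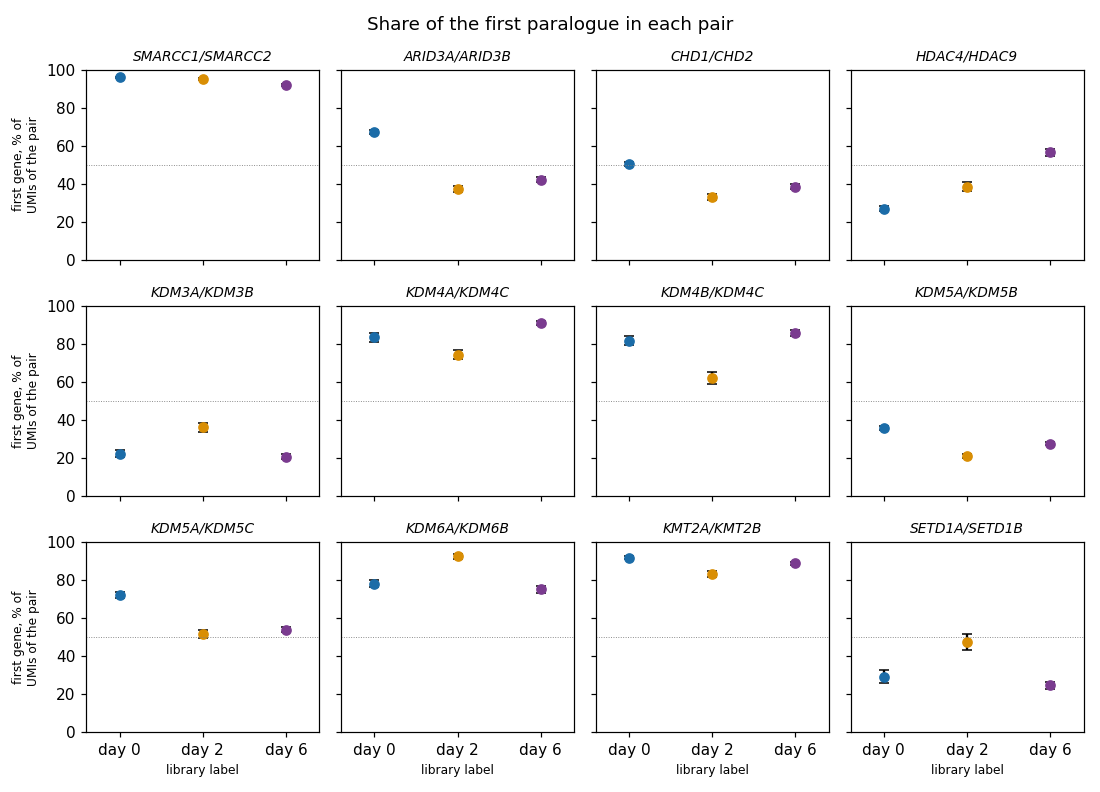
Share of the first gene in the UMIs of each of 12 paralogue pairs, in percent, in the libraries labelled day 0, 2 and 6, with exact Clopper-Pearson 95% intervals; the dotted line marks equal UMIs. ARID3A/ARID3B and HDAC4/HDAC9 cross the line between libraries, and KDM6A/KDM6B stands highest in the library labelled day 2, at 92.7%.

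Shares of cells with a UMI were set against genes of tissues not in the culture, of which 12 were in the gene lists. At 1000 UMIs, 58, 59 and 56 of the 67 members were found in more cells than ACTA1, the most widely found of the 12, in the libraries labelled day 0, 2 and 6. SMARCC1 was found in 28.2%, 22.4% and 29.4% of cells and HDAC2 in 26.3%, 36.4% and 28.6%. Without thinning, SMARCC1 was found in 83.1%, 61.1% and 71.7% of cells and HDAC2 in 82.3%, 75.4% and 72.0%, and ACTA1 in 7.34%, 4.75% and 7.82%. The median share of the 12 genes at 1000 UMIs was 0%, 0.0413% and 0.0120%. KDM6B and SETD1A did not exceed the ACTA1 share in any library at that depth, nor did SMARCC2 in the library labelled day 2 or KMT5A in those labelled day 2 and 6. These cell shares are not above that of ACTA1, while no other gene of the 12 exceeded 0.207%. Whether the ACTA1 share is background was not tested. The ratios of KDM6B, SETD1A, SMARCC2 and KMT5A rest on UMIs pooled over cells.

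Partner genes of the same complexes mostly stayed within 2-fold, as did most genes. For labelled day 2 over 0, 10.1% of genes with at least 10 CPM reached 2-fold and 10.2% lay at or under 0.5 times. These shares were 8.3% and 6.32% for day 6 over 2, and 9.94% and 6.09% for day 6 over 0. The partner lists were chosen with earlier results of these data known, so their counts are descriptions. Of 15 BAF partners measured, BCL11A was higher and BCL7A and BCL7C were lower for labelled day 2 over day 0, DPF1 was higher for day 6 over day 2, and BCL11A and BICRA (GLTSCR1 in the files) were higher for day 6 over day 0. BCL11A, a BAF-associated zinc finger protein, stood at 0.882, 38.3 and 22.8 CPM. DPF1, the neuronal BAF45B subunit in mouse, stood at 12.2, 8.0 and 24.0 CPM. Of 9 NuRD partners, MTA3 was the one past 2-fold, for labelled day 6 over day 0, at 97.6, 171 and 281 CPM. Of 24 CoREST, SIN3 and NCoR partners, SAP18 was higher for labelled day 2 over day 0, and ZMYM3 and SIN3B were among those higher for day 6 over day 0.

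Of 11 COMPASS partners, NCOA6 was lower for labelled day 2 over day 0 and higher for day 6 over day 2, at 41.0, 14.7 and 32.4 CPM. CXXC1, the CG-binding subunit of the SETD1 complexes, was higher for labelled day 6 over day 0, at 19.5, 34.6 and 49.8 CPM. Of 9 ISWI partners, CHRAC1 was higher for labelled day 2 over day 0 and BAZ1A lower for day 6 over day 0, and none of 7 other remodelling ATPases passed 2-fold in any comparison. Of 9 to 10 acetyltransferases measured, KAT2B (PCAF) stood at 30.7, 4.61 and 9.11 CPM and was lower in both later labels over day 0, and KAT6A was lower for labelled day 2 over day 0. Of 3 to 5 sirtuins measured, SIRT1 was higher for labelled day 2 over day 0 and SIRT7 for day 6 over day 0. Of 15 to 16 other SET domain genes, SMYD5 was higher and SMYD2 and SMYD4 lower for labelled day 2 over day 0, and SUV39H1 was higher for day 6 over day 0. Of 5 to 6 other Jumonji genes, JARID2, a Polycomb cofactor without demethylase activity, stood at 104, 411 and 230.2 CPM, higher in both later labels over day 0. JMJD6 was also higher for labelled day 2 over day 0, and PHF2 for day 6 over day 2. The median log2 ratio of the 10 lists lay between -0.49, for the ISWI partners, and 0.38 for labelled day 2 over 0. It lay between 0.18 and 0.44 for day 6 over 2, and between 0.01 and 0.66 for day 6 over 0, beside the 0.01, 0.12 and 0.11 over all genes.

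The 81 members lie on 22 chromosomes, with 10 on chromosome 12, the most on any, and 80 are protein coding. In GENCODE 29, on GRCh38, ARID3A spans chr19:925781-975934 on the plus strand, HDAC9 spans chr7:18086949-19002416 on the plus strand, KDM6B spans chr17:7839904-7854796 on the plus strand, and SETD1B spans chr12:121804180-121832584 on the plus strand. Across the 66 measured members, gene length and the ratio of CPM had a Spearman rho of -0.22 for labelled day 2 over 0, -0.11 for day 6 over 2 and -0.40 for day 6 over 0, against -0.27, 0.10 and -0.21 over all genes with a length. The points of each comparison share the same 2 libraries, so these are descriptions. KDM4E, with 1, 0 and 0 UMIs, and KDM5C-IT1, with 1, 3 and 0 UMIs, were at or under the 3 UMIs that counting allows in every library.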

How the data were processed

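Single cells of H9 were measured by inDrop with the TruDrop protocol, per the labels' protocols. For each of 3 libraries the authors deposited whole-number counts per gene and barcode, taken here as UMI counts, with lists of gene symbols and barcodes. STAR and hg38 are named in the submitters' processing notes. The annotation, the strand setting and the barcode filter are not stated there, in the labels or in the file headers.

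Kept cells had 1000 UMIs or more, 500 genes or more and no more than 25% mitochondrial UMIs, and no doublet caller was run. UMIs were summed per library and scaled to CPM. Levels have exact Poisson intervals, ratios exact conditional binomial intervals, ratios within pairs exact conditional odds ratio intervals and shares exact Clopper-Pearson intervals, all at 95%. The count total limits precision: 3 UMIs were taken as the floor. With 1 library per label no test was made. The ratios and their intervals were tested on counts simulated with counting error only. Those counts hold no variation between cells or cultures, so the test cannot show how the intervals behave under it.

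Members named are those past 2-fold, the member with most UMIs in each family and both genes of each pair that switched or shifted; others are given as background. Members and lists were chosen with earlier results of these data known. One partner gene is not reported here. Of the partner symbols, 6 were matched through RefSeq synonyms. Overlaps, gene lengths and chromosomes came from GENCODE 29. Clustering used scanpy 1.11.5, TMM factors edgeR 4.0.16, and intervals scipy 1.17.1.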

Additional observations from a re-analysis of the deposited data

How the results depend on the processing

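The 20 member ratios past 2-fold kept their direction under 10 alternatives of cell filter, weighting and scaling, and 17 to 20 stayed past 2-fold under each. Those that did not were SMARCC2 and SETD1A of labelled day 6 over day 0 in several settings, SMARCC2 of day 6 over day 2 (1.91 at its lowest), ARID3A (0.550) and HDAC9 (0.502) of day 6 over day 0 with at most 10% mitochondrial UMIs, KMT2A (0.551) with at least 5%, and KDM6B (0.550) with thinned cells.

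The counts of members moved more, and the shares of all genes were not computed under these settings. For labelled day 2 over day 0 the count of 1 higher member became 2 with at least 2000 UMIs per cell, with at most 10% mitochondrial UMIs or with totals without mitochondrial and ribosomal protein genes, 3 with cells of at least 5% mitochondrial UMIs, 4 with thinned cells, 0 at a minimum of 50 CPM, and 5 with no minimum or a 1.5-fold limit. The 6 members at most 0.5 times as high became 12 with at most 10% mitochondrial UMIs, 10 with thinned cells and 13 at 1.5-fold. For labelled day 6 over day 2 the 4 higher members became 11 with at most 10% mitochondrial UMIs, 8 with thinned cells, 0 at 50 CPM and 12 at 1.5-fold, and the 1 lower member became 0 at 50 CPM, 5 with no minimum and 4 at 1.5-fold. For labelled day 6 over day 0 the 4 higher members became 2 with all barcodes, TMM factors, median-of-ratios factors or totals without mitochondrial and ribosomal protein genes, 1 at 50 CPM and 11 at 1.5-fold, and the 4 lower members became 2 with at most 10% mitochondrial UMIs and 7 at 1.5-fold. The 4, 5 and 4 paralogue switches became 2, 3 and 2 with thinned cells, which hold fewer UMIs and each have the same weight. The cause of these moves was not tested.

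No paired analysis was possible because there is 1 library per label and the labels give no replicate numbers, only the unexplained letters A, B and A. Another scaling moved the median of all genes by at most 0.08 on the log2 scale. Members under 10 CPM and shares near those of ACTA1 are limited by depth.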
